A study of Mus musculus with 32 samples.

Results

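9 genes of the tetraspanin family (Cd9, Cd63, Cd81, Cd82, Cd151, Tspan2, Tspan3, Tspan7 and Tspan15) were described across the cell types of the mouse median eminence (ME), the part of the hypothalamus where neurohormones are released into the blood. They were taken by symbol from the 27998 genes of a matrix of 5982 single cells, which holds 31 genes of the family, and they had been chosen with their levels in these cells already in view. Their levels are therefore a description and were not tested. The cells came from male C57B/L6 mice aged 40 to 47 days. Of these mice, 5 were fasted overnight and 5 were fasted overnight and then refed normal chow for 1 h. By the labels, the tissue of each group was combined, dissociated with papain and split over 2 droplet libraries, so each group is 1 pool of animals without a replicate.

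The matrix counts each captured transcript once by its unique molecular identifier (UMI) and holds 29288898 UMIs, with a median of 3837 per cell. Each cell barcode ends in 1, 2, 3 or 4. No source used here says which library or feeding state these barcode numbers stand for, so the feeding states are mixed in every value and were not compared. The numbers held 1642, 1493, 1359 and 1488 cells with median depths of 3876, 3518, 4057 and 3892 UMIs. Numbers 2 and 4 stood apart from 1 and 3 in their haemoglobin UMIs, which were 0.114% and 0.0941% of the total over all 5982 cells against 0.000243% and 6.90e-05%. Most of these UMIs were in 3 cells of numbers 2 and 4 that were then set apart, and the 5979 cells kept had 0.00165% and 0.00518% in numbers 2 and 4. The part of this difference in the levels below was not tested, and levels are given for each number. 21 barcode sequences were found under more than 1 number.

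Tetraspanins are small proteins that span the membrane several times and gather integrins, adhesion proteins and proteases around themselves in patches of the cell surface. CD9, CD81, CD82 and CD151 act mostly at the surface, where CD9 and CD81 bind the immunoglobulin proteins IGSF8 and PTGFRN and CD151 binds laminin-binding integrins. CD63 is found in late endosomes and exosomes, TSPAN2 was found as a protein of oligodendrocytes and myelin, and TSPAN15 is a member of the TspanC8 subgroup, which binds the protease ADAM10 and directs it to its substrates. In the oligodendrocyte lineage, progenitors (OPCs) become differentiating OPCs (diffOPCs) and then mature oligodendrocytes (MOLs), which wrap axons in myelin.

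Cells were grouped from their UMIs and each group took the name of a cell type from lists of marker genes. 20 of 23 clusters, with 5399 cells, were named as 13 types, among them 304 OPC-like, 138 diffOPC-like and 655 MOL-like cells. All 99 markers were highest in the type they name, as the naming favours. Pdgfra, the receptor that marks progenitors, was at 893 CPM (UMIs of a gene per 1e+06 UMIs of the group) in OPC-like cells against at most 341 CPM elsewhere. Bmp4 was at 1172 CPM in diffOPC-like cells against at most 132 CPM, and the myelin gene Mog was at 2316 CPM in MOL-like cells against at most 244 CPM. No tetraspanin was in the lists. The 3 clusters left unnamed had 365 cells led by Mlc1, 194 led by Fxyd1 and 21 led by Mgp. The best list of the cells led by Mlc1 was that of tanycytes (score 0.607 against 0.273 for the next list). They were left unnamed because 2 markers of another list, against 1 of tanycytes, were among their leading genes. Orders of levels are over the 13 named types. The depth differed with the stage, since the median was 4022 UMIs in OPC-like, 9036 in diffOPC-like and 6133 in MOL-like cells.

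Cd9, Tspan2 and Tspan15 were all higher in diffOPC-like than in OPC-like cells, and the sequence around the start of each is shown for these 3, while Cd82, also higher at this step, is given by its counts of motifs. Each window runs from 250 bases before to 50 bases after a RefSeq start (GRCm38.p6, 5′ to 3′ on the strand of the gene), with matches to any of 4 motifs in capitals. The motifs were searched on both strands: the SOX cores ACAAAG and ACAATG, which are bound by SOX factors, the E-box CAGCTG, which is bound by basic helix-loop-helix factors, and the GC box GGGCGG. For Cd9 the window is chr6:125494711-125495010 on the minus strand, for Tspan2 chr3:102734520-102734819 on the plus strand, and for Tspan15 chr10:62231169-62231468 on the minus strand.
Cd9: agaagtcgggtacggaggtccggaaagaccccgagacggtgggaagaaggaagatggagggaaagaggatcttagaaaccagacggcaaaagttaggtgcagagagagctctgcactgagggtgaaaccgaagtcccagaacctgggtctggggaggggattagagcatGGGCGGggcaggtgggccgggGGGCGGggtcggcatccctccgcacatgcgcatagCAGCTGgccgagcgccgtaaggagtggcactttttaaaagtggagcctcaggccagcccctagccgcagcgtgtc
Tspan2: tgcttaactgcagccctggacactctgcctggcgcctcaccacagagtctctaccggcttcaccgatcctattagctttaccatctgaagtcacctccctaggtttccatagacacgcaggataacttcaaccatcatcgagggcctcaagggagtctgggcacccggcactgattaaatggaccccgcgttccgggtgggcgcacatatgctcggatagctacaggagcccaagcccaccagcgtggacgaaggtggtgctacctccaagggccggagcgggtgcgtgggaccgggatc
Tspan15: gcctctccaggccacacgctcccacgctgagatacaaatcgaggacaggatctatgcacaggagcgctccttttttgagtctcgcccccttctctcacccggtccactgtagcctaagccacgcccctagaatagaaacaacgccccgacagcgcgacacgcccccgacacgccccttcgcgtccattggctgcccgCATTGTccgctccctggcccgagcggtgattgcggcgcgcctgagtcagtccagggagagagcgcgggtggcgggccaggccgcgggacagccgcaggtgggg

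The Cd9 window held 2 GC boxes and 1 E-box, the Tspan15 window held 1 SOX core (ACAATG, read as CATTGT on this strand), and the Tspan2 window held no match to these letters. Among the windows of the 9 genes, a GC box was in 5, an E-box in 3, ACAAAG in 1 (Cd63) and ACAATG in 1 (Tspan15). Over all 32851 windows of this length the shares were 35.7% for the GC box, 16.3% for the E-box, 18.7% for ACAAAG and 12.6% for ACAATG. The 3 printed windows shared no motif, and that of Cd82 held 2 GC boxes, as did that of Cd9. A match is a run of letters and does not show that a factor binds there, and for genes with several windows in the table (4 for Cd82 and 2 each for Cd151 and Tspan2) the one nearest to the annotated gene start was used. The RefSeq starts of the Cd63, Tspan3, Tspan2 and Cd82 windows lie 8356, 4407, 241 and 190 bases from the annotated gene start. The printed Tspan2 window therefore lies mostly inside the annotated gene.

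The genes lie apart in the genome (GRCm38). Cd9 is at chr6:125460266-125494791, Tspan2 at chr3:102734529-102801513 and Tspan15 at chr10:62185396-62231251, and these are protein-coding genes. Tspan2 overlaps Tshb, the beta chain of thyrotropin, on the other strand, and Tshb had 550 UMIs in all cells. In pars tuberalis-like cells, of which Tshb is a marker, Tspan2 was at 89.6 CPM, and whether the counting used the strand is not given in the sources used here. Cd63 (chr10:128900989-128912822) and Tspan3 (chr9:56131725-56165477) overlap no other annotated gene. Cd82, Tspan7 and Tspan15 each overlap 1 annotated gene on the same strand, which is not among the genes of the matrix. Cd9, Cd81, Cd151 and Tspan2 overlap genes on the other strand only. Cd81 (chr7:143052739-143067934) and Cd151 (chr7:141467392-141471473) lie on the same chromosome. Cd82 is at chr2:93419111-93463140 and Tspan7 at chrX:10485158-10596605.

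Cd9 was highest in diffOPC-like cells. Its level there was 8059, 8331, 6616 and 7697 CPM in barcode numbers 1 to 4, and 7632 CPM (95% Poisson interval 7481 to 7785) over all 138 cells. In OPC-like cells it was 1935, 1962, 1668 and 1601 CPM in the 4 numbers and 1822 CPM in all. In MOL-like cells it was 1368, 1429, 1328 and 1414 CPM and 1382 CPM in all. The values of diffOPC-like cells lay above those of both other stages in all 4 numbers, with no overlap, and were 4.19 times those of OPC-like cells, the next named type in order. The unnamed cells led by Mlc1 had 1975, 1901, 1859 and 1979 CPM in the 4 numbers and 1938 CPM in all, also below the diffOPC-like range. The median cell held 65 Cd9 UMIs in diffOPC-like, 7 in OPC-like and 7 in MOL-like cells.

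The diffOPC-like cells were 2.31% of all cells and held 4.37% of all UMIs but 28.0% of the Cd9 UMIs. Outside the lineage, Cd9 was at 1653 CPM in ependymocyte-like cells, which line the ventricle, 1445 CPM in microglia-like cells and 1124 CPM in tanycyte-like cells, the radial glia of the ventricle floor. The ranges over the 4 numbers overlapped between OPC-like and ependymocyte-like, between ependymocyte-like and microglia-like, and between microglia-like and MOL-like cells, so this order is not resolved. Neuron-like cells were lowest at 57.7 CPM, and their 4 numbers had 49.1, 34.3, 59.8 and 73.3 CPM.

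At least 1 Cd9 UMI was found in 99.3% of diffOPC-like (exact Clopper-Pearson 95% interval 96.0% to 100%), 99% of OPC-like, 97.1% of MOL-like and 43.7% of neuron-like cells. These cells differ in depth, with a median of 12822 UMIs in neuron-like cells. After every cell was thinned to 1000 UMIs the shares were 97.1%, 79.6%, 64.4% and 4.32%. The share of Cd9-positive cells thus hardly separated the stages at full depth, whereas the level did.

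**Figure D1:**
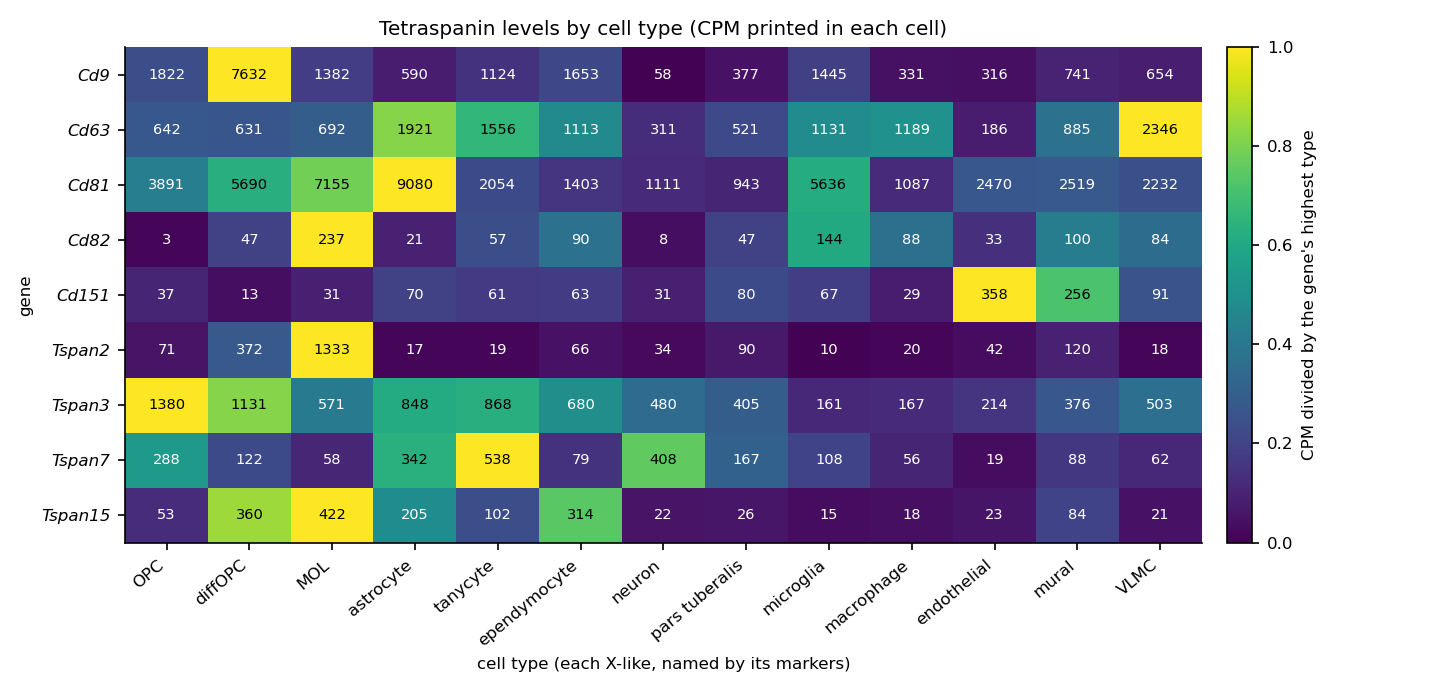
Levels of the 9 tetraspanin genes (rows) in the 13 cell types named by markers (columns). Printed numbers are CPM over all cells of a type, and colour is the CPM divided by the highest type of the same gene, from 0 to 1. Cd9 peaks in diffOPC-like, Tspan2, Tspan15 and Cd82 in MOL-like, Cd151 in endothelial-like and Cd63 in VLMC-like cells.

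Tspan2 was highest in MOL-like cells. It was at 1308, 1321, 1309 and 1388 CPM in the 4 numbers of MOL-like cells and 1333 CPM (1299 to 1367) in all. The 4 numbers of diffOPC-like cells had 367, 234, 429 and 427 CPM (372 CPM in all, and 217 CPM when clustered at Leiden resolution 2), and those of OPC-like cells had 82.1, 63.2, 53.5 and 76.6 CPM (70.8 CPM in all). The 3 stages did not overlap in any number, in ascending order from OPC-like to MOL-like cells, and number 2 was the lowest among diffOPC-like cells.

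The lineage cells held 23.8% of all UMIs and 91.1% of the Tspan2 UMIs. Mural-like cells, which surround small vessels, followed at 120 CPM with a wide range from 37.6 to 178 CPM over 78 cells. Their 4 numbers had 37.6, 178, 146 and 111 CPM of Tspan2. Cldn11, the claudin of myelin, was at 0, 730, 614 and 111 CPM in the same numbers. The part of RNA from other cells in this Tspan2 level was not tested. In all types outside the lineage except mural-like cells the level of Tspan2 was under 100 CPM. At least 1 UMI was seen in 99.2% of MOL-like, 65.9% of diffOPC-like and 25.0% of OPC-like cells, against 2.48% of microglia-like cells, which had the lowest share (median depth 3080 UMIs). At 1000 UMIs per cell these shares were 67.8%, 23.2%, 7.57% and 0.496%.

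Tspan15 was similar in the later stages and low in progenitors. MOL-like cells had 393, 423, 417 and 453 CPM in the 4 numbers and 422 CPM (403 to 441) in all, and diffOPC-like cells had 383, 306, 365 and 369 CPM and 360 CPM in all. OPC-like cells had 28.1, 44.2, 80.3 and 80.4 CPM and 52.9 CPM in all. The later stages lay above OPC-like cells in all 4 numbers, with a ratio of 6.80 between diffOPC-like and OPC-like cells, while MOL-like cells were 1.17 times the diffOPC-like level, also without overlap of the numbers. Within OPC-like cells, numbers 3 and 4 were above numbers 1 and 2, on 65 Tspan15 UMIs in all.

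Tspan15 was also found in ependymocyte-like cells at 314 CPM, whose range of 284 to 369 CPM overlapped that of diffOPC-like cells, and in astrocyte-like cells at 205 CPM. Tanycyte-like cells were at 102 CPM, and the unnamed cells led by Mlc1, whose best marker list was that of tanycytes, were at 276 CPM. Microglia-like cells were lowest at 14.8 CPM, but their range of 10.6 to 24.1 CPM overlapped that of macrophage-like cells (17.9 CPM), among others. Of microglia-like cells 4.96% were positive, against 87.8% of MOL-like, 81.2% of diffOPC-like and 18.4% of OPC-like cells. At 1000 UMIs per cell the shares were 0.744%, 32.7%, 29.0% and 5.92%. The oligodendrocyte lineage held 50.3% of Tspan15 UMIs.

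Cd82, known as a suppressor of metastasis that holds back cell migration, was highest in MOL-like cells. Their 4 numbers had 221, 230, 263 and 233 CPM and 237 CPM (223 to 252) in all. The 4 numbers of diffOPC-like cells had 45.5, 44.3, 46.0 and 51.4 CPM. Those of OPC-like cells had 0, 3.16, 0 and 11.5 CPM, from 4 UMIs in 304 cells. The stages did not overlap, and the OPC-like level of 3.26 CPM (0.887 to 8.34) was the lowest of the 13 types. The OPC-like range over the 4 numbers overlapped that of neuron-like cells (8.41 CPM), so this lowest place is not resolved. Microglia-like cells were next to MOL-like cells at 144 CPM, with a range of 124 to 185 CPM that stayed under that of MOL-like cells.

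Cd81, a partner of CD9 in surface complexes, was found in nearly every cell, with 99.1% of all cells positive. Astrocyte-like cells were highest, at 8985, 9252, 8983 and 9078 CPM in the 4 numbers and 9080 CPM in all. MOL-like cells followed with 6962, 7285, 6636 and 7742 CPM and 7155 CPM in all, then diffOPC-like cells with 5585, 5949, 5600 and 5710 CPM and 5690 CPM in all. The ranges of diffOPC-like and microglia-like cells (5636 CPM) overlapped. OPC-like cells had 3854, 4083, 3952 and 3668 CPM and 3891 CPM in all, so the 3 stages did not overlap. Pars tuberalis-like cells, of the pituitary stalk, were lowest at 943 CPM. Their range overlapped those of macrophage-like (1087 CPM) and neuron-like cells (1111 CPM), so this lowest place is not resolved.

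Cd63, the tetraspanin of late endosomes and exosomes, differed between the stages by less than the spread between numbers. It was at 605, 641, 714 and 643 CPM in the 4 numbers of OPC-like cells and 589, 633, 694 and 610 CPM in those of diffOPC-like cells. In those of MOL-like cells it was at 638, 744, 716 and 685 CPM. The 3 ranges overlapped. Its highest level was in VLMC-like (vascular and leptomeningeal) cells at 2346 CPM, with a range of 2279 to 2439 CPM, followed by astrocyte-like cells at 1921 CPM and tanycyte-like cells at 1556 CPM, none of which overlapped. Endothelial-like cells were lowest at 186 CPM from 40 UMIs, with a range that overlapped that of neuron-like cells (311 CPM).

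Tspan3, which binds the myelin claudin CLDN11, was highest in progenitors and lower at each later stage. OPC-like cells had 1339, 1384, 1325 and 1490 CPM in the 4 numbers, diffOPC-like cells 1194, 1201, 1059 and 1082 CPM, and MOL-like cells 581, 574, 531 and 598 CPM. The stages did not overlap. Its lowest levels were in microglia-like cells at 161 CPM and macrophage-like cells at 167 CPM, whose ranges overlapped.

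Tspan7, which binds the scaffold protein PICK1 and is known in neurons, was also lower at each later stage. OPC-like cells had 253, 344, 312 and 257 CPM, diffOPC-like cells 107, 113, 121 and 148 CPM, and MOL-like cells 54.8, 55.5, 50.8 and 70.5 CPM, with no overlap. It was highest among named types in tanycyte-like cells at 538 CPM (range 513 to 565), followed by neuron-like cells at 408 CPM (range 349 to 446). The unnamed cells led by Fxyd1, whose best marker list was that of tanycytes, had 958, 887, 1162 and 842 CPM in the 4 numbers and 960 CPM in all, above the range of the tanycyte-like cells.

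Cd151, the partner of laminin-binding integrins, was highest in cells of vessels. Endothelial-like cells had 314, 352, 304 and 531 CPM in the 4 numbers and 358 CPM (283 to 448) in all, and mural-like cells had 357, 142, 219 and 306 CPM and 256 CPM in all. These ranges overlapped. The 21 unnamed cells led by Mgp had 370 CPM from 36 UMIs. In the lineage Cd151 was low, at 36.6, 13.3 and 30.8 CPM in the OPC-like, diffOPC-like and MOL-like stages, and diffOPC-like cells, with 17 UMIs, were the lowest of the 13 types.

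Between the stages, genes with at least 50 UMIs in both stages together were compared by the log2 ratio of CPM + 10, and a gene was counted when the ratio was at least 1 log2 unit. From OPC-like to diffOPC-like cells, 4 of 9 members were higher (Cd9, Cd82, Tspan2 and Tspan15) against 6.61% of all 6957 genes, and 2 of 9 were lower (Cd151 and Tspan7) against 12.3%. The log2 ratio was 2.06 for Cd9, 2.10 for Cd82, 2.24 for Tspan2 and 2.56 for Tspan15. By the rule that the 4 numbers do not overlap, 5 members were higher against 13.6% of genes and 3 were lower against 23.4%. The median log2 ratio was 0.55 over the members and -0.16 over all genes compared. Cd82, on 60 UMIs in diffOPC-like and 4 in OPC-like cells, fell under the minimum of 50 UMIs without number 1, 3 or 4, with log2 ratios of 1.94, 2.03 and 2.33. Cd151, on 17 and 45 UMIs, fell under it without number 1 (-0.98) and number 4 (-1.05), and missed 1 log2 unit without number 2 (-0.89), on 50 UMIs. After thinning to 1000 UMIs per cell, Tspan7 was at -0.80, and Cd82 (1.26) and Cd151 (-1.70) had too few UMIs to be counted. The members were chosen with these levels known, so these counts are read beside the shares only and support nothing.

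From diffOPC-like to MOL-like cells, Cd82 (log2 ratio 2.12) and Tspan2 (1.81) were higher by at least 1 log2 unit against 7.57% of 8094 genes, and Cd9 (-2.46) was lower against 13.6%. By the rule that the numbers do not overlap, 5 members were higher against 14.7% of genes and 3 were lower against 34.8%. Tspan15 was among the 5, at a log2 ratio of 0.22. Tspan3 (-0.97) and Tspan7 (-0.95) lay just short of 1 log2 unit, and Cd151 in the first step lay just past it at -1.003. Without number 4, Tspan3 was counted as lower as well, against 14.6% of genes, and Tspan3 and Tspan7 after thinning, against 17.2%. The median was 0.22 over the members and -0.29 over all genes compared.

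**Figure D2:**
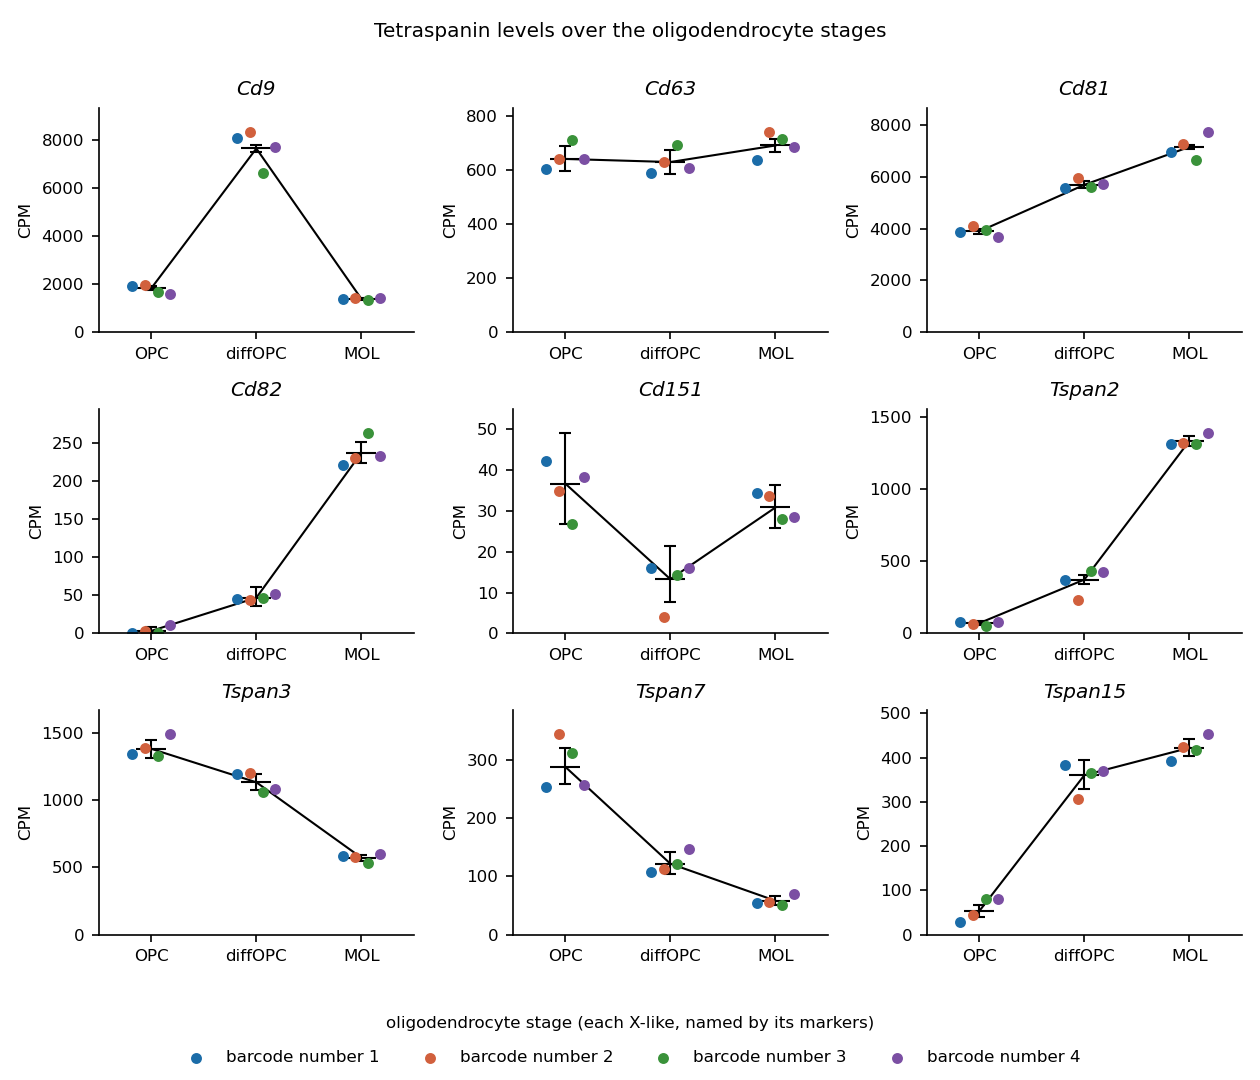
Levels of the 9 genes in OPC-like, diffOPC-like and MOL-like cells (x axis), in CPM from 0 (y axis, with its own scale in each panel). Coloured points are the 4 barcode numbers, and black marks and bars are the value over all cells with its 95% Poisson interval. Cd9 has its peak at the middle stage at 7632 CPM, Tspan2 and Cd82 are highest at the last stage, Tspan3 and Tspan7 are highest at the first, and Cd63 stays between 589 and 744 CPM.

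The lineage cells were clustered again alone, which divided the later stages further. As these genes took part in the clustering, the differences between its groups are a description. The diffOPC-like cells were divided between a group of 102 with high Bmp4 (1578 CPM), of which 99 were diffOPC-like and 3 OPC-like, and a group of 39 led by Prom1 with more Mog (443 against 132 CPM). Cd9 was at 9647, 9667, 9123 and 9567 CPM in the 4 numbers of the first group and 4415, 3887, 3575 and 4493 CPM in those of the second. Tspan2 was at 169 CPM in the first and 734 CPM in the second, Tspan15 at 275 and 504 CPM, and Cd82 at 25.1 and 84.7 CPM. The ranges over the 4 numbers did not overlap for any of these 4 genes. The second group was deeper, with a median of 11608 against 7916 UMIs, and it had 39 cells with 7 to 13 in each number.

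Among MOL-like cells, 99 cells led by Ctps had the highest levels of Cd9 (2307 CPM), Cd81 (11156 CPM), Tspan2 (2120 CPM) and Tspan15 (710 CPM) of the 5 groups with at least 30 cells. Opposite to them, 61 cells led by Klk6, a protease gene of mature oligodendrocytes, had the lowest levels of Cd9 (198 CPM), Cd63 (155 CPM), Cd81 (3995 CPM) and Tspan2 (573 CPM). In the Klk6-led cells Cd9 was at 164, 116, 327 and 174 CPM in the 4 numbers, and the median cell held 1 Cd9 UMI against 21 in the Ctps-led cells. Cd82 hardly differed across the 5 groups, from 209 to 288 CPM, while Cd9 spanned an 11.7-fold range. At 1000 UMIs per cell, 23.0% of Klk6-led and 84.8% of Ctps-led cells held a Cd9 UMI. A further 20 cells led by Dcn, a gene of fibroblast-like cells, were left out of these ranges.

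When the genes of the family were left out before the lineage was clustered, an alternative added after seeing the data, the diffOPC-like cells were divided over 3 groups. Of 55 cells with 9100 CPM of Cd9, 52 were diffOPC-like, as were all of 72 cells with 8698 CPM, and the other 14 joined 18 MOL-like cells in a group of 32 led by Marcks with 1665 CPM. The division of the diffOPC-like cells, and with it the Cd9 values of their groups, thus changed with that choice. The difference in Cd9 between MOL-like groups was present there too. Cd9 was at 275 CPM in 78 cells led by Klk6 and reached 2261 CPM in 86 cells led by Shisa8. The 32 cells led by Marcks had the higher levels of Tspan15 (1022 CPM), Cd81 (12419 CPM) and Tspan2 (2000 CPM). In the Shisa8-led cells these were at 509, 9725 and 1909 CPM.

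**Figure D3:**
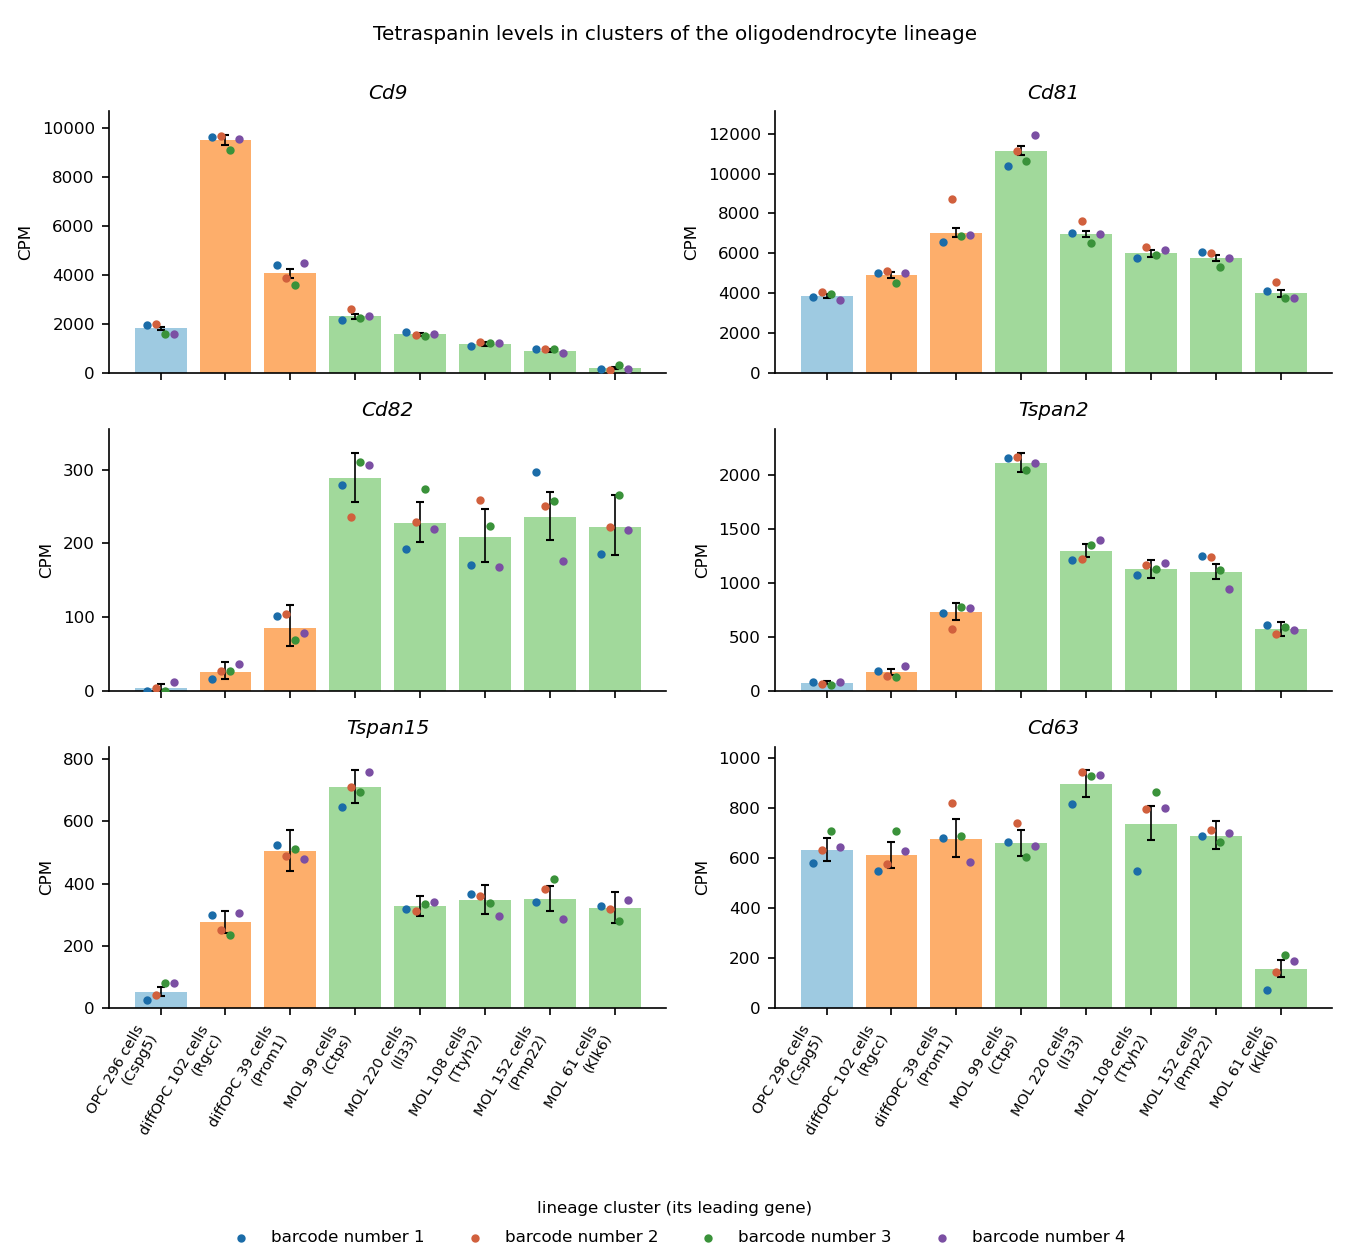
Levels of 6 tetraspanin genes in the lineage clusters with at least 30 cells (x axis, with the stage, the number of cells and the leading gene), in CPM from 0 (y axis). Bars are CPM over all cells with 95% Poisson intervals, points are the 4 barcode numbers, and bar colour is the stage. Cd9 goes from 9513 CPM in 102 diffOPC-like cells to 198 CPM in 61 Klk6-led MOL-like cells, and Tspan15 is highest at 710 CPM in the 99 Ctps-led cells.

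Of the 22 other genes of the family, 18 had at least 50 UMIs in all cells, 3 had fewer and Prph2 had 0. 10 of the 18 reached 100 CPM in at least 1 named type. Those with their highest level in OPC-like cells were Tspan6 and Tspan12, a receptor subunit of the Norrin pathway of vessels. Tspan6 was at 402, 239 and 24.9 CPM in the OPC-like, diffOPC-like and MOL-like stages, and Tspan12 at 211, 130 and 11.5 CPM, so both had the order of Tspan3 and Tspan7. The ranges of Tspan6 in OPC-like cells overlapped those in ependymocyte-like cells, and the ranges of Tspan12 those in mural-like and endothelial-like cells. The unnamed cells led by Mlc1 had more Tspan12, at 269 CPM. Tspan13 had this order in the lineage as well (423, 50.8 and 9.89 CPM), but its highest level was in endothelial-like cells (1028 CPM). The 21 unnamed cells led by Mgp were above that, at 1264 CPM.

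The leukocyte tetraspanins Cd53 and Cd37 were highest in microglia-like cells, at 1277 and 339 CPM, and then in macrophage-like cells, at 684 and 89.5 CPM. Cd53 was at most 6.16 CPM in the other named types and 0 of the UMIs of 84 endothelial-like cells, where 3 counts would be 13.95 CPM. Tspan4 was highest in endothelial-like cells at 181 CPM, with a range that overlapped that of mural-like cells, and Tspan31 was even, from 52.1 CPM in mural-like to 123 CPM in astrocyte-like cells. The other 8 genes stayed under 100 CPM in every named type.

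The TspanC8 subgroup that partners ADAM10 was divided among cell types. Tspan15 was the member with its highest level in MOL-like cells. Tspan17 was highest in diffOPC-like cells, with 166, 157, 138 and 164 CPM in the 4 numbers and 156 CPM in all, against 16.3 CPM in OPC-like and 60.7 CPM in MOL-like cells, and the 3 stages did not overlap. Endothelial-like cells were next at 112 CPM from 24 UMIs, with a range of 40.6 to 176 CPM that overlapped that of diffOPC-like cells. Tspan5 was highest in endothelial-like cells at 298 CPM from 64 UMIs. Tspan14 was highest in microglia-like cells at 105 CPM, with endothelial-like cells at 88.4 CPM and overlapping ranges. Tspan33 did not pass 55.4 CPM in a named type and Tspan10 had 1 UMI in all cells.

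Adam10 itself was low and spread over all 13 types, from 9.43 CPM in pars tuberalis-like to 104 CPM in microglia-like cells, whose range overlapped those of endothelial-like and macrophage-like cells. In the OPC-like, diffOPC-like and MOL-like stages it was at 38.3, 32.0 and 35.3 CPM, and the ranges over the 4 numbers overlapped, whereas Tspan15 differed 6.80-fold between the first and second of these stages. Hbegf, a growth factor gene whose product forms a complex with CD9, was at 74.1, 65.6 and 2.47 CPM in the 3 stages.

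**Figure D4:**
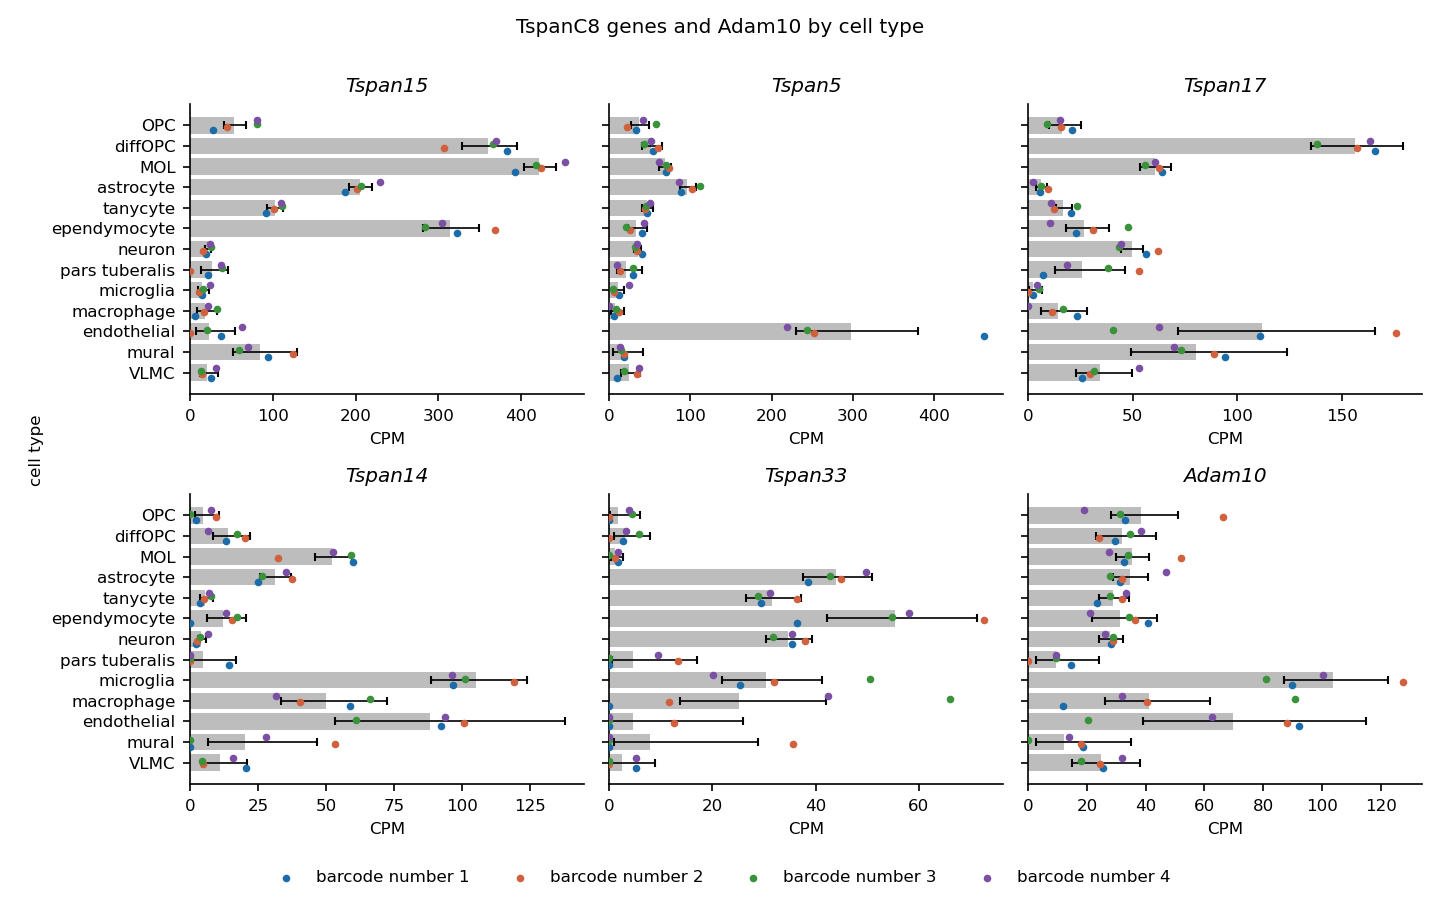
Levels of 5 TspanC8 genes and Adam10 (panels) in the 13 cell types named by markers (y axis), in CPM from 0 (x axis, with its own scale in each panel). Bars are CPM over all cells with 95% Poisson intervals and points are the 4 barcode numbers. Tspan15 is highest in MOL-like (422 CPM) and diffOPC-like (360 CPM) cells, Tspan17 in diffOPC-like (156 CPM), Tspan5 in endothelial-like (298 CPM), and Tspan14 and Adam10 in microglia-like cells (105 and 104 CPM).

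Of the 12 partner genes, 3 were highest in MOL-like cells. Cldn11, the claudin of myelin, was at 91.2, 2861 and 8145 CPM in the OPC-like, diffOPC-like and MOL-like stages. Lamp1, of lysosomes, where CD63 is also found, was at 759, 1498 and 2206 CPM. Igsf8 was at 116, 40.6 and 411 CPM in the same order, so that it was the lowest of the 3 at the stage where Cd9 was highest. The 4 numbers had 117, 139, 98.1 and 99.6 CPM of Igsf8 in OPC-like cells and 29.4, 56.4, 46.0 and 35.3 CPM in diffOPC-like cells, with no overlap. Ptgfrn, the related partner, had 81 UMIs in all cells and 0 CPM in MOL-like cells.

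Of the integrin genes, Itgb1 was highest in vessel cells, at 825 CPM in mural-like and 372 CPM in endothelial-like cells. Itga6 was at 144 CPM in endothelial-like cells, from 31 UMIs, and at 129 CPM in microglia-like cells, with overlapping ranges, and mural-like cells had 1 UMI. Itga3 was low in all types, at 21.2 CPM or less, and was highest in pars tuberalis-like cells, with 9 UMIs. In the lineage Itga6 was at 1.56 to 4.07 CPM and Itga3 at 0.674 to 3.12 CPM, while Itgb1 was at 168, 270 and 126 CPM in the 3 stages. Sdcbp, which encodes the CD63-binding syntenin, had 503 CPM in macrophage-like cells, where its range over the 4 numbers overlapped those of microglia-like cells (445 CPM) and endothelial-like cells (405 CPM). Pick1 stayed at or under 50.3 CPM in every type, and Timp1, which encodes a ligand of CD63, had 38 UMIs.

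Cldn11 UMIs were also found in cell types not known to express it. In mural-like cells, 91 Cldn11 UMIs in 12 of 78 cells gave 364 CPM, with 0, 730, 614 and 111 CPM in the 4 numbers. In endothelial-like cells, where 15 Cldn11 UMIs gave 69.8 CPM, the 4 numbers had 18.5, 50.3, 102 and 156 CPM, and in microglia-like cells 57.6, 44.7, 127 and 128 CPM. The OPC-like values (44.6, 47.4, 169 and 153 CPM) were of the size seen in endothelial-like and microglia-like cells, with numbers 3 and 4 above 1 and 2. Tspan15 in OPC-like cells had its higher values in the same numbers, while in microglia-like cells Tspan15 was at 13.8, 10.6, 15.2 and 24.1 CPM. The paper reports both Cldn11 and Tspan15 as upregulated by refeeding in its OPC cluster, and the feeding states of the numbers are not known here. The part of RNA from other cells in the OPC-like levels of Tspan15 and the mural-like levels of Tspan2 was not tested. Nor was the part of the feeding state in the OPC-like levels of Tspan15 and Cldn11.

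Across the 13 named types, the members most alike in level were Tspan2 and Tspan15 (Pearson r of log2(CPM + 10) = 0.66), Tspan3 and Tspan15 (0.64) and Cd9 and Tspan15 (0.62), and the least alike were Cd82 and Tspan7 (-0.54). Among 7762 genes with at least 500 UMIs, those most like Cd9 were Tns3 (r = 0.87), Gspt1 (0.84) and Qk (0.79), all with their highest level in diffOPC-like cells. Among those most like Tspan2 were Tmem88b (0.93) and Mog (0.92), which encodes a myelin protein. For Tspan15 they were Scd2 (0.94), a fatty acid desaturase, Igsf11 (0.89) and Psat1 (0.88), an enzyme of serine synthesis.

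For Cd81 they were Lap3 (0.89), Mpc1 (0.84) and Selenoo (0.84), for Cd82 Fth1 (0.86), the ferritin heavy chain, Ebp (0.84), an enzyme of cholesterol synthesis, and Tmem63a (0.81), and for Cd63 Dpp7 (0.84), the unnamed ENSMUSG00000063897 (0.83) and Notch2 (0.81). For Cd151 they were Tmem109 (0.92), Fyco1 (0.91) and Tnfaip1 (0.91), for Tspan3 Pccb (0.95), Mpc2 (0.92) and Zcchc3 (0.92), and for Tspan7 Ube2e1 (0.88), Fam173a (0.88) and Srpk2 (0.88). With Spearman correlation in place of Pearson, 0 of 9 members kept the same 3 genes. The 13 points come from the same libraries, differ in depth and are not independent samples.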

How the data were processed

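Single cells of the ME were measured with droplet-based 10x Genomics libraries that read transcript ends. The authors mapped the reads to GRCm38 (mm10) and counted UMIs with Cell Ranger 2.0. The deposited matrix holds raw counts per gene and cell. The 32 sample records are parts of 4 libraries from 2 pools of 5 mice and were not taken as replicates. Unused columns of per-sample values numbered 0. Of 27998 gene identifiers, 27645 were matched to symbols in GENCODE vM21, and promoter sequences are those of RefSeq (GRCm38.p6).

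Haemoglobin genes made up 10% or more of the UMIs in 3 cells, which were not placed in a type, and 5979 were kept. Clusters were made with scanpy 1.11.5 (2000 variable genes, 30 principal components, 15 neighbours, Leiden resolution 1, seed 0, igraph 0.11.9). A cluster took the name of the best of 13 marker lists at a score (the mean over the list's genes of CPM over the highest cluster's CPM) of at least 0.3, at least 1.5 times the next list, with 3 markers at least 4-fold above the median cluster. It stayed unnamed where another list had more genes than the best list among the leading genes of the cluster by fold. Only this last rule left the cells led by Mlc1 unnamed. CPM is a gene's summed UMIs in a group per 1e+06 UMIs of that group. Intervals (95%, exact Poisson or Clopper-Pearson) cover counting error only, and 1 sample without a replicate allows no test. Ranges over barcode numbers are the spread used for overlap. Doublets (52 cells, 0.870%, by Scrublet) were kept in the reported values. The steps were tested on simulated data.

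The members and lists were chosen with earlier results of these data known. Genes in the text are the 9 members, family genes with at least 50 UMIs and at least 100 CPM in a named type, 12 partner genes, the 3 genes most like each member (1 of those for Tspan2 is not reported here), and genes that lead a cluster. Pdgfra, Bmp4 and Mog are also given as markers from the lists. Prph2, Tspan33, Tspan10 and Tshb were named after their values were seen. Alternatives were other clusterings (Leiden resolutions 0.5 and 2, K-means with 9 clusters on 10 components, family genes left out), no doublets, a filter of 1000 UMIs or more and 20% mitochondrial UMIs or less, leaving out each barcode number, cells thinned to 1000 UMIs, a pseudocount of 1 in place of 10 CPM, no minimum of 50 UMIs, at least 2 UMIs for a positive cell, and Spearman in place of Pearson correlation. A further alternative was added after seeing the data, the lineage clustered without the family genes.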

Additional observations from a re-analysis of the deposited data

How the results depend on the processing

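Cd9 was highest in diffOPC-like cells under each alternative except K-means, whose 9 clusters gave no group named OPC-like or diffOPC-like, so that no stage values could be made there. From OPC-like to diffOPC-like cells, the members lower by at least 1 log2 unit that were counted numbered 1 to 2 with a barcode number left out, against 12.2% to 12.4% of the genes compared, and 0 after thinning to 1000 UMIs, against 13.5%. Tspan7 (-0.80 after thinning) and Cd151 (-0.89 without number 2) missed 1 log2 unit there, while Cd151 without numbers 1 (-0.98) and 4 (-1.05) and after thinning (-1.70), and Cd82 among the higher members without numbers 1, 3 and 4 (1.94 to 2.33) and after thinning (1.26), had under 50 UMIs. Thinning left 151 genes higher and 246 lower of 1816 compared, with fewer UMIs per gene, and no minimum on UMIs gave 1373 lower genes of 15365. From diffOPC-like to MOL-like cells, the lower members numbered 3 at Leiden resolution 2 (against 14.3% of genes), 2 with doublets left out (14.1%), 1 to 2 with a barcode number left out (at most 14.7%), 3 after thinning (17.2%) and 2 with a pseudocount of 1 CPM (20.3%). Tspan3, Tspan7 or both were gained there, each within 0.05 log2 units of the threshold in the reported values, and Cd151 was gained among the higher members with a pseudocount of 1 CPM (log2 ratio 1.16 in place of 0.81, against 10.4% of genes higher). Thinning left 403 genes higher and 430 lower of 2504.

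Levels moved by over 1.5 times for Cd82 in OPC-like cells (1.03 to 6.42 CPM, from 4 UMIs), Cd82 (21.7 CPM) and Cd151 (7.25 CPM) in thinned diffOPC-like cells and Tspan2 in diffOPC-like cells at Leiden resolution 2 (217 CPM). No called log2 ratio was reversed, though that of Cd63 (-0.03) changed sign at Leiden resolution 2 and without doublets. Of 659 values (levels, ratios, shares and the likeness counts), 543 were kept. A level or share was kept when it lay within the counting interval of its reported value. A ratio was kept within the bounds that these intervals give, and a likeness count when all 3 genes stayed. Among the shares of positive cells, 7 of 35 were within the counting interval with at least 2 UMIs for a positive cell, and 3 of 35 after thinning. Of 96 counts of genes or members past 1 log2 unit, 82 stayed within 1.5 times and 14 did not. These totals include alternatives that could change little. The filter on UMIs and mitochondrial share, and the family genes left out of the clustering, gave the same stage ratios for the members. Leaving out a barcode number and thinning kept the reported cell types, and no minimum on UMIs cannot change a ratio. With Spearman correlation, 0 of 9 members kept the same 3 most-alike genes. No paired analysis was possible because the cell barcodes carry no replicate number of the labels and no test was run. Levels from fewer than about 50 UMIs, such as Cd151 in diffOPC-like and Tspan15 in endothelial-like cells, have wide counting intervals.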
